A study of Mus musculus with 4 samples.

Results

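The Id genes (Id1, Id2, Id3 and Id4), the E protein genes (Tcf3, Tcf4 and Tcf12) and the Twist genes (Twist1 and Twist2) were followed through RNA-seq of C2C12, a mouse myoblast line that fuses into multinucleated myotubes in differentiation medium (DM). The 9 genes were taken by their symbols, as the inhibitors, the shared partners and a mesenchymal branch of 1 protein family, and each has 1 entry among the 24850 named entries of the total RNA tables and the 24992 of the polyA tables. Total RNA-seq of rRNA-depleted RNA comprised 1 library of myoblasts (MB, DM -24 h) and 1 of myotubes (MT, DM 72 h by the label, while a legend of the study gives a shorter time for an RNA-seq comparison), both from cells with no transfection named in the labels. PolyA RNA-seq comprised 1 library of cells transfected with a scrambled control siRNA (si-NC) and 1 of cells transfected with siRNA against hnRNPL (si-hnRNPL), an RNA-binding protein, both at DM 48 h. All 4 libraries came from the same cell line, and with 1 library per condition no difference could be checked on replicates, so no p-value is given.

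E proteins are basic helix-loop-helix (bHLH) transcription factors that are made in most cells. They pair with tissue-restricted bHLH factors, among them the muscle factors MyoD and myogenin, and the pair binds the E-box, whose letters are CANNTG. Id proteins carry the helix-loop-helix but lack the basic region that touches DNA, so they hold E proteins in pairs that cannot bind, and they are classical targets of bone morphogenetic protein (BMP) signaling and markers of proliferating, undifferentiated myoblasts. Twist proteins are bHLH factors of mesenchyme that also pair with E proteins and can antagonize MyoD.

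The sequences before the starts of Id2, Id3 and Tcf3 are shown because these genes, a pair of inhibitors and 1 of their partners, stood at close fractions of their MB level in MT, while Id3 alone was called in the siRNA comparison. Each line gives the 250 bases before the start in RefSeq on the GRCm38.p6 build, 5′ to 3′ on the strand of the gene, with E-boxes (CANNTG) and the letters GGCGCC, a motif known from BMP-responsive elements of Id promoters, in capitals.
Id2, chr12:25096093-25096342, minus strand: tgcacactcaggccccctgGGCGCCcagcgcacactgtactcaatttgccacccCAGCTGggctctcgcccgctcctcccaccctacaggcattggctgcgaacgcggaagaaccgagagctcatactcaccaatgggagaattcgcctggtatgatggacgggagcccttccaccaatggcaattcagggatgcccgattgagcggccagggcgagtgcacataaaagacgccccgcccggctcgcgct
Id3, chr4:136143572-136143821, plus strand: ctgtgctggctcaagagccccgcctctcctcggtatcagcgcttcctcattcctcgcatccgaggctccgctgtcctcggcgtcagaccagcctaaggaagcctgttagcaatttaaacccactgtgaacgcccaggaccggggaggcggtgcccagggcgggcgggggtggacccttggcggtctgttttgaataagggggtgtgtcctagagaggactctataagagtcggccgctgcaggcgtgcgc
Tcf3, chr10:80433636-80433885, minus strand: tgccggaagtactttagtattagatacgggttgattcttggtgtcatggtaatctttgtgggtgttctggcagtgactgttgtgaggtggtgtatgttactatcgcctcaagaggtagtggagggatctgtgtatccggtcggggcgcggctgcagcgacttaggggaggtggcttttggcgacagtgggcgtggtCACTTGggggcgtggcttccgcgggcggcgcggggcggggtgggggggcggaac
Windows of 300 bases, from 250 before to 50 after the start, were found for 7 of the 9 genes. No window was available for Id1 or Tcf4, so these genes were not searched for motifs. Tcf12 has 3 of these 9 windows. An E-box was held by 5 of the 9 windows, those of Id2, Tcf3 and Tcf12, against 72.3% of all 32851 promoter windows. In Id2 the E-box was CAGCTG, at -196, and in Tcf3 it was CACTTG, at -54. CAGCTG, which is also counted as a CANNTG, was found for Id2 and Tcf12 and in 16.3% of all windows, and GGCGCC was found for Id2 (-231) and Id4 (-148) and in 11.9% of all windows. The motifs read the same on both strands, and a match is a description of letters only.

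The files place the genes on mm9, and all 9 are annotated there as protein coding. The Id genes are short: Id1 (chr2:152561987-152563146) has 1160 bp of exon, Id2 (chr12:25778664-25780957) has 1270 bp, Id3 (chr4:135699737-135701307) has 1791 bp and Id4 (chr13:48356796-48359405) has 1660 bp. Exon lengths pool all annotated exons of a gene and can exceed its transcript length. For Id3 the annotation spans chr4:135699412-135701670, which is wider than the locus given here. The E protein genes are long, with 4039 bp of exon for Tcf3 (chr10:79871910-79896398), 12250 bp for Tcf4 (chr18:69504146-69847621) and 4861 bp for Tcf12 (chr9:71692059-71959626). Twist1 (chr12:34642536-34644696) has 1616 bp of exon and Twist2 (chr1:93698054-93744604 in the total RNA tables) has 1329 bp. FPKM, the fragments of a gene scaled by its length and by the size of the library, allows levels of these genes to be compared, and each value below is given with the 95% interval of the deposited tables, which covers the error of counting and assigning fragments inside 1 library and nothing else.

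The intervals correspond to 59957460 fragments in MB, 54440533 in MT, 21341051 in si-NC and 14592480 for si-hnRNPL, so the polyA values are the less precise. Among the marker lists, all 8 myotube markers examined were higher in MT than in MB (summed FPKM of 18.5 in MB and 1802 in MT), all 4 cycling-cell markers were lower (406 and 73.8), 3 of 4 myoblast markers (Myod1, Des and Cdh15, which myotubes also express) were higher in MT rather than in MB (195 and 385), and the 3 endothelial and blood markers lay below 0.05 FPKM in every library. Hnrnpl, the siRNA target, measured 95.1 FPKM (95% interval 92.7 to 97.5) in si-NC and, in si-hnRNPL, 85.9 (83.1 to 88.7), which is 90.4% of the control. The mRNA of the target was thus lower in the library labelled si-hnRNPL, but by far less than a fold of 1.5. The study examined the knockdown by Western blot in cells at DM 48 h, and protein is not part of these data. Each direction below is that of the library so labelled.

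In the differentiation comparison Id1, Id2, Id3, Tcf3 and Twist2 were lower in MT than in MB, while Tcf4 was higher. A gene was called at a fold of 1.5 or more on the log2(FPKM + 1) scale, that is, an absolute log2 change of 0.58. By this rule 5 of the 9 genes were lower in MT and 1 was higher. Of all 24459 named genes tested, 13.8% were called lower and 7.91% higher. Of the 11758 that reached 1 FPKM in MB or MT, as 7 of the 9 genes did, 28.5% were called lower and 15.4% higher. The median log2 change of the 9 genes was -0.99. Over the 10739 genes that reached 1 FPKM in MB and in MT alike, the median was -0.23 and the quartiles were -0.66 and 0.21.

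Id3, an inhibitor of E proteins, was the most abundant of the 9 genes in both total RNA libraries. Its level was 211 FPKM (207 to 214) in MB and 104 (102 to 107) in MT, or 49.4% of the MB level. The log2 change was -1.01 (-1.05 to -0.97), and 12.7% of genes fell further. Id1 measured 78.9 FPKM (76.7 to 81.1) in MB and 27.7 (26.4 to 29.0) in MT, a log2 change of -1.48 (-1.55 to -1.40), with 5.67% of genes falling further. Of the 3 Id genes above 1 FPKM, Id1 thus kept the lowest fraction of its MB level, 35.1%. Id2 measured 56.9 FPKM (55.3 to 58.4) in MB and 25.7 (24.7 to 26.8) in MT, which is 45.3% of MB and a log2 change of -1.11 (-1.18 to -1.05). The changes of the Id genes differed from each other by more than the intervals: the log2 change of Id1 minus that of Id2 was -0.36 (-0.47 to -0.26), and minus that of Id3 it was -0.47 (-0.55 to -0.38).

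Id4 was close to silent. It measured 0.233 FPKM (0.147 to 0.320) in MB and 0.0460 (0.00845 to 0.0836) in MT, and these values correspond to 29 and 6 fragments. The level in MT was lower outside the intervals, but the log2 change of -0.24 (-0.35 to -0.12) did not reach the call, because 1 FPKM is added to each value before the ratio. No share of the summed Id level above 0.0673% came from Id4 in any library.

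The E protein genes, whose products are the partners that Id proteins sequester, moved in different directions. Tcf3, which encodes E12 and E47, measured 32.6 FPKM (31.9 to 33.4) in MB and 15.9 (15.3 to 16.5) in MT, or 48.7% of MB, a log2 change of -0.99 (-1.05 to -0.94). Tcf4, which encodes E2-2, went the other way, from 9.999 FPKM (9.69 to 10.3) in MB to 26.7 (26.2 to 27.3) in MT, or 2.67-fold. Its log2 change was 1.33 (1.28 to 1.38), and 96.9% of genes had a lower one. Tcf12, which encodes HEB, was 37.0 FPKM (36.3 to 37.7) in MB and 48.2 (47.2 to 49.2) in MT. Its log2 change of 0.37 (0.33 to 0.41) was above 0 but under the call, although 81.6% of genes had a lower one, and centred on the median of all genes it was 0.60, past the call.

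The make-up of the E protein messages therefore differed between the libraries more than their sum did. Tcf3 gave 41.0% of the summed E protein FPKM in MB and 17.5% in MT, Tcf4 gave 12.5% and 29.4%, and Tcf12 gave 46.5% and 53.1%. Tcf4 was the least abundant E protein gene in MB and stood above Tcf3 in MT. The log2 change of Tcf3 minus that of Tcf4 was -2.33 (-2.41 to -2.25), while the summed E protein level was 79.7 FPKM in MB and 90.8 in MT, a log2 change of 0.19 (0.16 to 0.21).

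Twist2 had the largest fall of the 9 genes on the log2(FPKM + 1) scale, from 17.2 FPKM (16.4 to 18.1) in MB to 4.02 (3.62 to 4.42) in MT. This is 4.28-fold lower as a plain ratio, on which the scarce Id4 was 5.07-fold lower, with a log2 change of -1.86 (-1.99 to -1.73), and 3.33% of genes fell further. Twist1 was at the limit of detection in every library. It measured 0.0328 FPKM in MB and 0.0157 in MT, from 4 and 2 fragments, so no difference was detectable at this depth, and Twist2 made up at least 99.3% of the summed Twist level in each library.

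**Figure D1:**
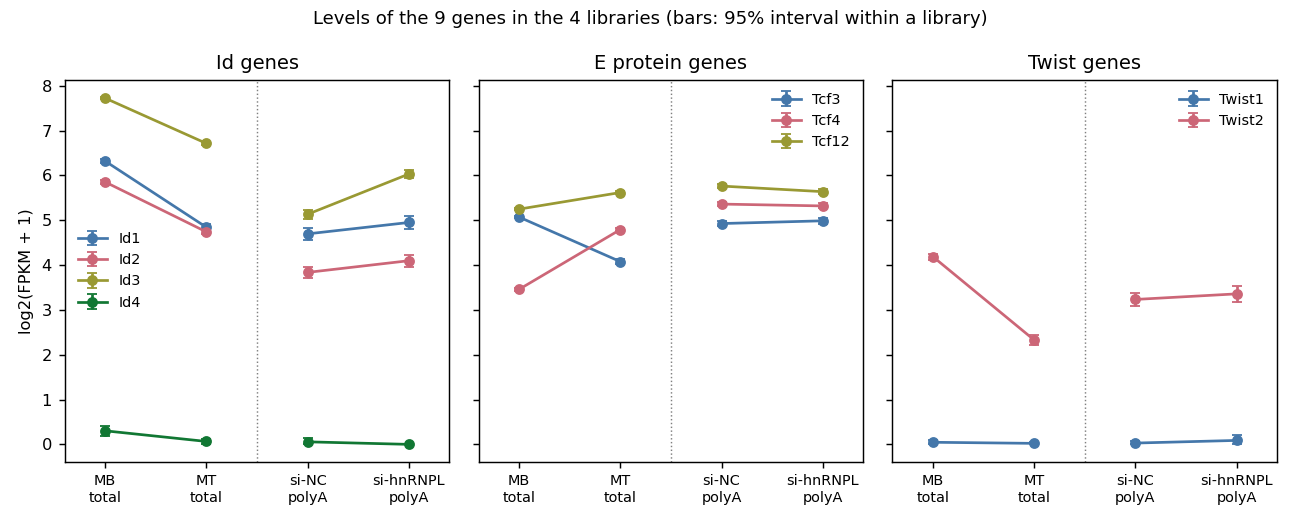
Levels of the Id, E protein and Twist genes as log2(FPKM + 1) in the MB and MT total RNA libraries and the si-NC and si-hnRNPL polyA libraries, with bars for the 95% interval within a library and lines joining only libraries of the same kind. Tcf3 and Tcf4 cross between MB and MT, Id3 is the 1 gene with a steep line between si-NC and si-hnRNPL, and Id4 and Twist1 lie near 0 throughout.

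In the plot of levels by library, the order of the genes can be followed. In MB all 9 genes had separate intervals, in the order Id3, Id1, Id2, Tcf12, Tcf3, Twist2, Tcf4, Id4 and Twist1. In MT the order was Id3, Tcf12, Id1, Tcf4, Id2, Tcf3, Twist2, Id4 and Twist1, with overlapping intervals among Id1, Tcf4 and Id2 and for Id4 with Twist1. The E protein genes Tcf12 and Tcf4 thus moved up among the Id genes, and Tcf12 passed Id1 and Id2.

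In the siRNA comparison, Id3 was higher in the library labelled si-hnRNPL, and no other member was called. Id3 measured 34.1 FPKM (31.8 to 36.5) in si-NC and, in si-hnRNPL, 64.5 (60.5 to 68.6), or 189% of the control, from about 822 and 1013 fragments. Its log2 change was 0.90 (0.77 to 1.03), and of the 11089 genes that reached 1 FPKM in each polyA library 29, or 0.262%, had a larger one. Of all 24991 named genes tested 0.688% were called higher and 0.416% lower, and of the 11369 that reached 1 FPKM in either library 1.44% and 0.888%, against 1 higher and 0 lower of the 9 genes. The median log2 change of the 9 genes was 0.061. Over the 11089 genes it was -0.011, with 95% of genes between -0.42 and 0.45, so Id3 lay well outside this range and the other 8 genes lay inside it.

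Id1 and Id2 differed less than Id3 did. Id1 was 24.95 FPKM (22.7 to 27.2) in si-NC against 29.9 (26.9 to 33.0) in si-hnRNPL, a log2 change of 0.25 (0.063 to 0.45). Id2 was 13.3 FPKM (12.1 to 14.5) and 16.1 (14.5 to 17.8), a log2 change of 0.26 (0.074 to 0.45). Neither gene reached the call, although both intervals of the change lay above 0. The log2 change of Id1 minus that of Id3 was -0.64 (-0.88 to -0.41), that of Id2 minus that of Id3 was -0.64 (-0.87 to -0.41), and that of Id1 minus that of Id2 was -0.0066 (-0.27 to 0.26). Id4 was listed at 0.0400 FPKM (0 to 0.109) in si-NC and at 0 in si-hnRNPL, so no fold is given.

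The E protein genes lay close together in the 2 polyA libraries. Tcf3 was 29.4 FPKM (28.3 to 30.6) in si-NC against 30.8 (29.4 to 32.2) in si-hnRNPL, a log2 change of 0.061 (-0.023 to 0.15). Tcf4 was 40.1 FPKM (38.6 to 41.6) and 38.97 (37.4 to 40.5), a change of -0.041 (-0.12 to 0.035). Tcf12 was 53.3 FPKM (51.5 to 55.1) and 48.8 (46.9 to 50.8), a change of -0.13 (-0.20 to -0.052). Only for Tcf12 did the interval exclude 0, and the intervals of all 3 genes exclude a fold of 1.5 in either direction.

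Twist2 measured 8.41 FPKM (7.46 to 9.35) in si-NC against 9.26 (8.02 to 10.5) in si-hnRNPL, and its log2 change of 0.12 (-0.10 to 0.35) was not distinguishable from 0. Twist1 was at 0.0204 FPKM and 0.0630, from about 1 and 2 fragments.

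**Figure D2:**
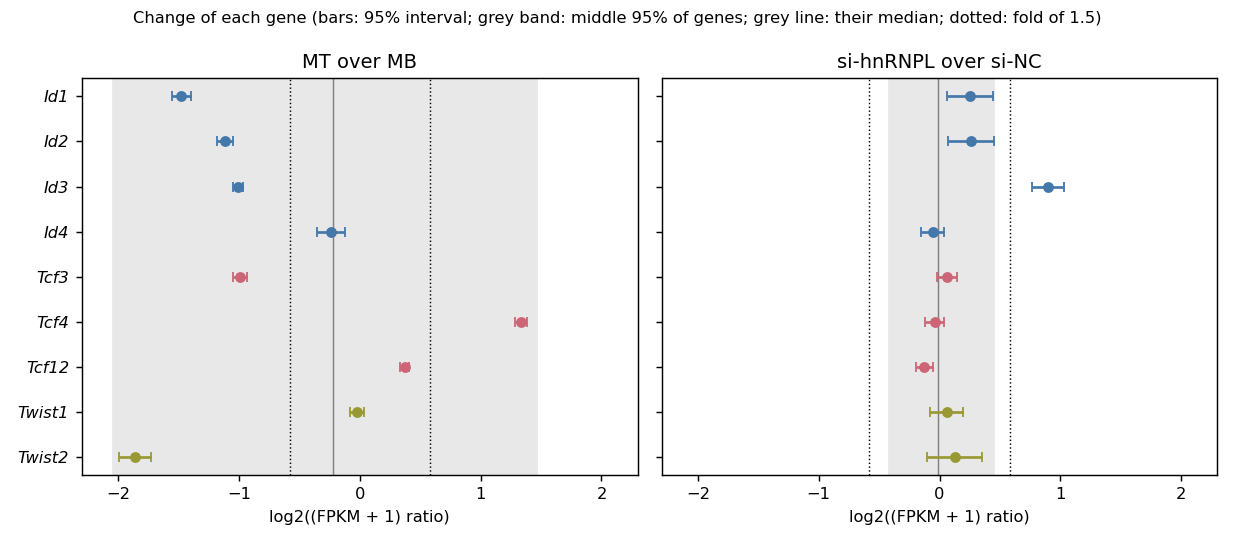
Change of each gene as log2((FPKM + 1) ratio), MT over MB on the left and si-hnRNPL over si-NC on the right, with bars for the 95% interval, a grey band for the middle 95% of genes that reached 1 FPKM in each library of the pair, a grey line at their median and dotted lines at a fold of 1.5. On the left Id1, Id2, Id3, Tcf3 and Twist2 lie below the lower dotted line and Tcf4 above the upper one; on the right Id3, at 0.90, alone lies outside the band.

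The plot of changes also shows that all 9 genes lay within the middle 95% of genes in the differentiation comparison, which ran from -2.04 to 1.47. The siRNA libraries were far closer to each other, and a smaller absolute change sufficed to stand apart there.

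The changes varied with the length of the gene in both comparisons. In MT over MB the 500 genes nearest in exon length had a median log2 change of -0.41 for Id1, -0.40 for Id2, -0.31 for Id3 and 0.033 for Tcf4. Relative to genes of like length the log2 change was -1.06 for Id1, -0.71 for Id2, -0.70 for Id3, -0.71 for Tcf3, 1.30 for Tcf4 and -1.47 for Twist2, so each of these kept its call, and that of Id2 was smaller by over 1.5 times. Between si-NC and si-hnRNPL the trend ran along the whole range of lengths. Over the 10017 of 11089 genes with a known exon length (90.3%), the median log2 change was 0.18 in the shortest of 20 groups (median length 847.5 bp) and -0.15 in the longest (12004 bp). The 500 genes nearest to Id1 in exon length had a median of 0.14, those nearest to Id2 0.13 and those nearest to Id3 0.093. Relative to these medians the log2 change was 0.12 for Id1, 0.13 for Id2 and 0.81 for Id3. For the long gene Tcf4 the like-length median was -0.14 and the change relative to it was 0.098. The differences of Id1 and Id2 were thus smaller relative to genes of like length, and that of Id3 stayed past the call. A part of gene length in these differences was not tested.

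**Figure D3:**
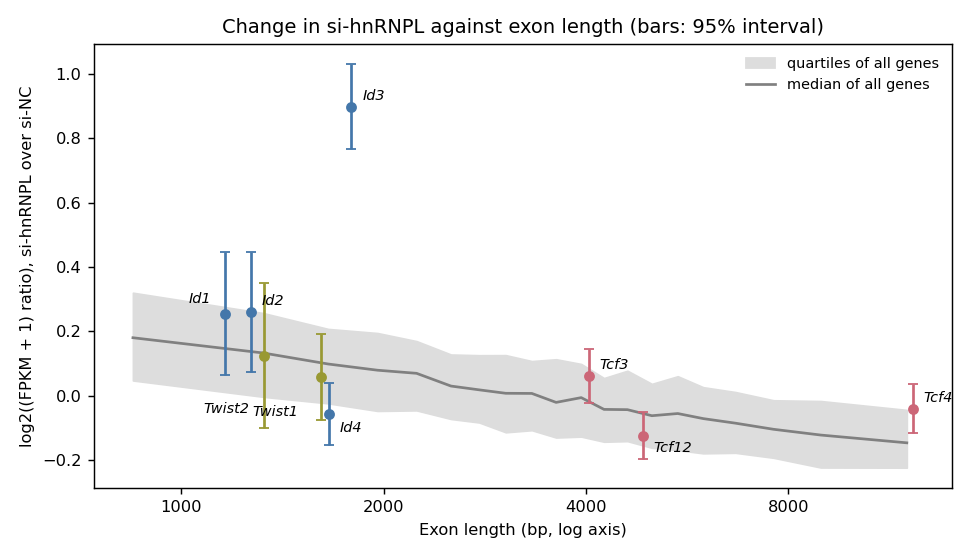
Log2 change of the 9 genes between si-NC and si-hnRNPL against their exon length on a log axis, with bars for the 95% interval, and the median and quartiles of all genes in 20 groups of exon length. The median of all genes falls from 0.18 to -0.15 along the axis; Id1, Id2 and Twist2 lie near it and Id3 lies 0.81 above the median of genes of like length.

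Summed over the family, Id messages outnumbered E protein messages in MB and less so in MT. The summed Id level was 347 FPKM (342 to 351) in MB and 158 (155 to 161) in MT, a log2 change of -1.13 (-1.17 to -1.10). The ratio of the summed Id level to the summed E protein level was 4.35 (4.27 to 4.43) in MB and 1.74 (1.70 to 1.78) in MT, a log2 change of -1.33 (-1.37 to -1.28). The fall in the ratio came with fewer Id messages and slightly more E protein messages. These are ratios of messages, and protein was not measured here. In MT over MB the like-length medians were -0.41, -0.40 and -0.31 for Id1, Id2 and Id3. For Tcf3, Tcf4 and Tcf12 they were -0.28, 0.033 and -0.21, and the ratio was not adjusted for length.

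In the polyA libraries the ratio lay below 1, at 0.589 (0.559 to 0.621) in si-NC against 0.933 (0.884 to 0.985) in si-hnRNPL, a log2 change of 0.66 (0.55 to 0.77). The summed Id level was 72.4 FPKM (68.9 to 75.95) in si-NC against 111 (105 to 116) in si-hnRNPL, while the summed E protein level was 123 and 119. Id3 gave 47.1% of the summed Id level in si-NC and 58.3% in si-hnRNPL, and without Id3 the log2 change of the ratio was 0.32 (0.17 to 0.47). The shift of the ratio thus became smaller without Id3. Relative to genes of like length the changes of Id1, at 0.12 (-0.072 to 0.31), and Id2, at 0.13 (-0.060 to 0.31), had intervals that include 0. The like-length medians were 0.14, 0.13 and 0.093 for Id1, Id2 and Id3. For Tcf3, Tcf4 and Tcf12 they were -0.022, -0.14 and -0.054. These medians differ in the direction of the shift of the ratio, and the ratio was not adjusted for length. In the differentiation comparison Id3 gave 60.8% of the summed Id level in MB and 66.0% in MT, and the log2 change of the ratio without Id3 was -1.53.

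**Figure D4:**
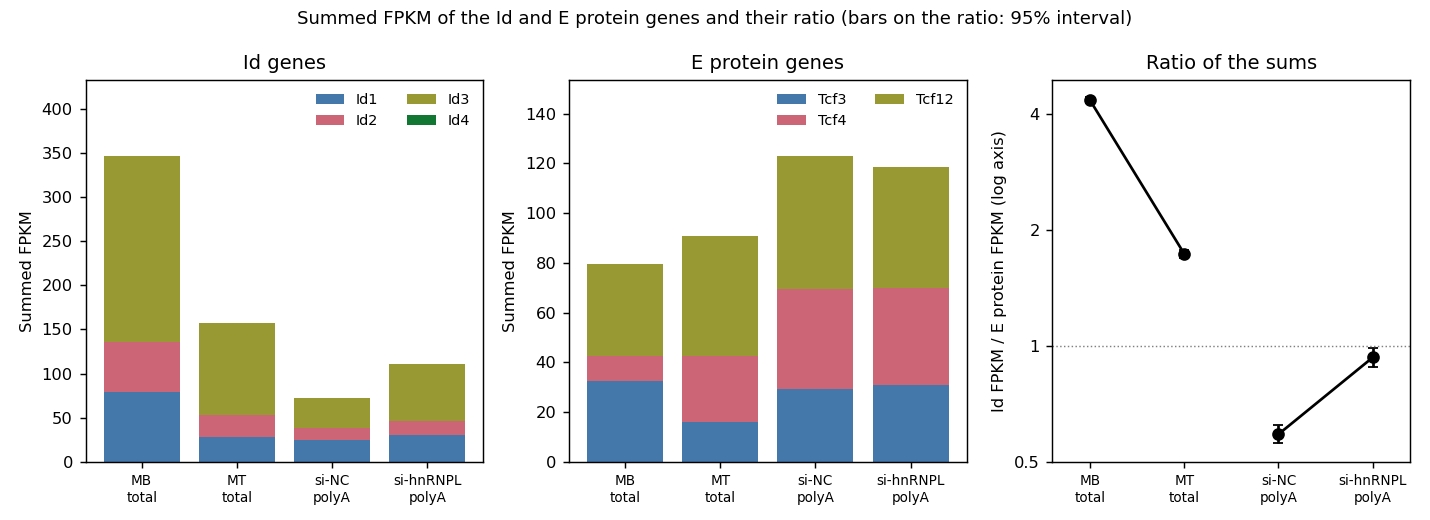
Summed FPKM of the Id genes and of the E protein genes in each library, divided by member, and the ratio of the 2 sums on a log axis with its 95% interval; the vertical scales of the sums differ. The ratio falls from 4.35 in MB to 1.74 in MT and stands at 0.589 in si-NC against 0.933 in si-hnRNPL, with Id3 as the largest part of every Id sum.

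The plot of the summed levels places total and polyA libraries side by side, but these differ in RNA selection, time in DM, transfection and sequencing platform, which cannot be told apart, so levels of the 2 kinds are set side by side without a test. Id3 was 104 FPKM in MT and 34.1 in si-NC, and Tcf4 was 26.7 and 40.1. In si-NC the order was Tcf12, Tcf4, Id3, Tcf3, Id1, Id2 and Twist2, all with separate intervals, and in si-hnRNPL Id3 stood first, ahead of Tcf12 and Tcf4.

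Markers of cell state moved in both comparisons. Besides the shifts in MT given above, 3 of 8 myotube markers (Ckm, Mylpf and Acta1) were called higher in si-hnRNPL than in si-NC. Of all genes that reached 1 FPKM in either polyA library, 1.44% were called higher and 0.888% lower. The myotube list summed to 2584 FPKM for si-NC against 3928 for si-hnRNPL, mostly from Acta1 (1009 against 1537) and Mylpf (998 against 1612). Myog, Tnnt1 and Myh3 stayed under the call (log2 changes of 0.51, 0.37 and 0.36). For Mb (0.045) and Myh1 (-0.071) the intervals include 0. Of the cycling-cell markers 2 of 4 (Top2a and Mki67) were called lower, with a summed level of 163 for si-NC against 117. Ccnb1 and Cdk1 stayed under the call (-0.31 and -0.32). The siRNA changes of markers were not set relative to genes of like length. The medians by length ran from 0.18 in the shortest group to -0.15 in the longest. Of the markers of other states, Bglap (1 of 4 osteogenic), Cebpa (1 of 4 adipogenic) and Spry1 (1 of 3 reserve cell) were called higher in MT. Bglap was near the floor, at 0.202 FPKM in MB and 1.09 in MT. Runx2 of the osteogenic and Pparg of the adipogenic list were called lower. Of the other reserve cell markers, Cd34 was lower (log2 change -0.57) and Pax7 higher (0.53), both just under the call. Of all named genes, 7.91% were called higher in MT and 13.8% lower. In the siRNA comparison 0 of these or of the myoblast markers were called. Bulk RNA-seq cannot tell fewer cells of a type from less RNA per cell. Id3 was thus higher in the same library in which cycling markers were lower, while in MT the Id genes and the cycling markers were both lower than in MB. Their part in the changes of the Id genes was not tested.

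The BMP pathway list, whose ligands, receptors and Smad proteins lie upstream of Id genes, had 17 of 24 genes that reached 1 FPKM in MB or MT. Of these, 2 were called higher and 3 lower in MT, and the median log2 change was -0.34, against -0.20 for all 11758 genes so filtered, of which 15.4% were called higher and 28.5% lower. The list was thus called no more often than genes at large, and its called genes are given as values only. The higher ones were Chrd, an extracellular antagonist of BMPs, from 0.709 FPKM in MB to 5.42 in MT (log2 change 1.91), and the ligand Bmp4, from 15.2 to 30.1 (0.94). The lower ones were the inhibitory Smad gene Smad7, from 12.4 to 3.17 (-1.68), Smad9, which encodes a BMP-activated Smad, from 3.43 to 0.737 (-1.35), and Smad6, the other inhibitory Smad, from 6.53 to 2.64 (-1.05). A ligand and an antagonist were thus higher in MT, while both inhibitory Smads and a BMP-activated Smad were lower. The ligand gene Bmp6, below the filter, went from 0.0375 FPKM to 0.722 (0.73). In the siRNA comparison 0 of 16 filtered genes of the list were called in either direction (median log2 change -0.12, all genes -0.010), with Smad6 at 0.18, Smad7 at 0.21 and Bmp4 at 0.13 beside the 0.90 of Id3.

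Of the tissue-restricted bHLH genes, whose products compete with Id proteins for E proteins, 5 of 20 passed the filter, 3 were higher in MT and 0 lower, with a median log2 change of 0.71, beside the same shares and the median of -0.20 over all filtered genes. Myog, the gene of myogenin, went from 0.695 FPKM in MB to 251 in MT (log2 change 7.21), Myod1 from 36.6 to 65.9 (0.83) and Scx, a factor of tendon, from 56.1 to 92.6 (0.71). Myog was a defining marker of the myotube list too. In si-hnRNPL Scx was the 1 gene of the list called, at 43.1 FPKM in si-NC against 70.2 in si-hnRNPL (log2 change 0.69), and Myog, at 175 and 249 (0.51), stayed under the call. Id3 and Scx were therefore the called genes among the 9 members and this list. Unlike Id3, which stood at 0.81 relative to genes of like length, Scx was not set against such genes.

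Of 10 genes of E-box-binding repressors and Hairy-related factors, 9 passed the filter, 6 were higher in MT and 2 lower (median log2 change 0.63), again beside 15.4% and 28.5% of all filtered genes and their median of -0.20. The largest rises were those of Heyl, from 0.224 FPKM to 10.1 (3.18), Bhlhe41, from 5.21 to 16.5 (1.498), and Zeb1, from 13.4 to 32.9 (1.24). Snai1 fell from 12.9 to 5.87 FPKM (-1.02) and Hes1 from 32.6 to 20.8 (-0.62). None of the 9 was called in the siRNA comparison, where the median was -0.14.

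**Figure D5:**
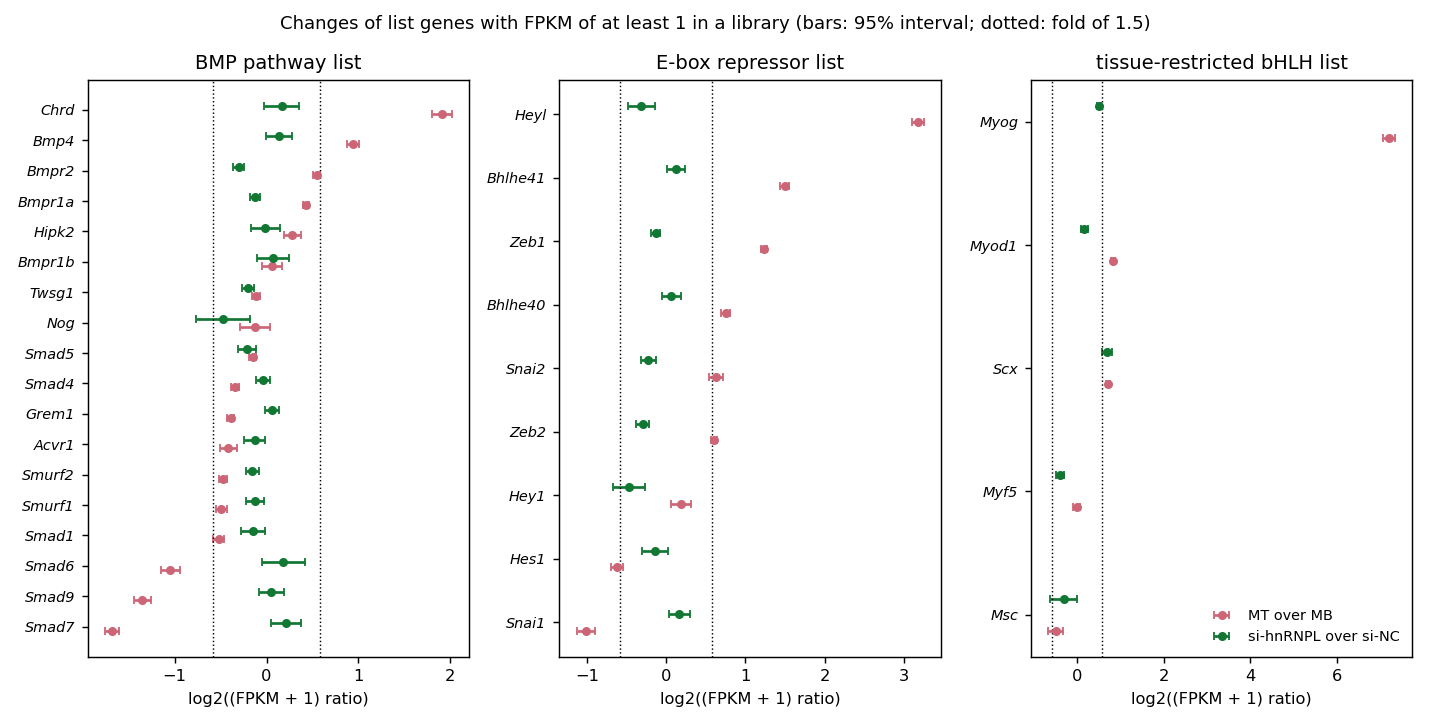
Log2((FPKM + 1) ratio) of the genes of the BMP pathway, E-box repressor and tissue-restricted bHLH lists that reached 1 FPKM in any library, MT over MB in red and si-hnRNPL over si-NC in green, with bars for the 95% interval and dotted lines at a fold of 1.5; the horizontal scales of the panels differ. Red points spread from -1.68 for Smad7 to 7.21 for Myog, while the green points lie within the dotted lines except for Scx at 0.69.

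As the plot of the lists shows, 1 gene of the lists, Scx, was called between the siRNA libraries, where few of all genes were called either.

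Genes beside the members were called in both directions in MT. Within 100 kb of a member, or 300 kb for the Twist genes, 18 genes reached 1 FPKM in a library, beside 7 of the members. In MT 4 of the 18 were called higher and 3 lower. Of all genes that reached 1 FPKM in MB or MT, a narrower filter, 15.4% were higher and 28.5% lower. Kidins220, 34.1 kb from Id2, was 15.3 FPKM in MB and 36.2 in MT (log2 change 1.19), and E2f2, 26.9 kb from Id3, was 7.20 and 15.0 (0.97), so both rose where their Id neighbours fell. Hdac9, 87.8 kb from Twist1, went from 0.332 to 1.74 FPKM (1.04), and Adamtsl5, near Tcf3, from 5.40 to 11.1 (0.92). Uqcr11, the gene closest to Tcf3 at 2.3 kb, had a log2 change of -0.029 (201 and 197 FPKM). Mbd3, 9.6 kb from Tcf3, was lower in MT like Tcf3, from 45.7 to 19.2 FPKM (-1.21), as did Mex3d (13.9 and 7.66, -0.78), and Rpl11, near Id3, had a log2 change of -0.68. In the siRNA comparison 0 of the 18 were called, with 0.39 as the largest absolute log2 change. The neighbours of Id3 had values of 0.015 for Asap3, 0.26 for Rpl11 and -0.30 for E2f2 beside the 0.90 of Id3.

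The total RNA tables also list 36780 transcript units assembled from the reads without a gene symbol. None of them (0) overlapped a member's locus. Within 100 kb of a member lay 64, of which 8, or 12.5%, were called higher in MT and 4 lower, against 19.8% and 3.09% of all units. The nearest, 143 bp from Tcf4, measured 0.140 FPKM (0.0516 to 0.229) in MB and 0.254 (0.138 to 0.371) in MT, with overlapping intervals.

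For the member of each family with the largest change in MT, the genes with the most similar profile over the 4 libraries were found among 10043 genes, by the distance between log2(FPKM + 1) values centred on the mean of each gene. Closest to Id1 were Gsto1 (distance 0.055 on the log2 scale), Cmtm7 (0.077) and Klhdc4 (0.078). Closest to Tcf4 were Gatsl2 (0.051), Cdh15 (0.067), which encodes the muscle cadherin, and Angpt1 (0.098). Closest to Twist2 were Hspb6 (0.076), Rps6ka4 (0.10) and Ier3 (0.11). With 4 points of 2 library kinds, such a likeness describes these libraries only.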

How the data were processed

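Reads of at least 36 bp after trimming were aligned by the authors to the mm9 genome (TopHat 2.0.13), and Cufflinks 2.1.1 gave the abundances. They deposited FPKM values with 95% intervals for each of 4 libraries, 1 per condition, which were read as they are. The polyA kit is not described as marking strand, so overlapping antisense reads cannot be told apart there. FPKM is scaled to the library, so a difference is relative to the other RNAs in it.

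Changes were log2((FPKM + 1) ratios), called at an absolute value of 0.58 (a fold of 1.5); the pseudocount of 1 understates changes of low genes. Intervals of changes, sums and ratios combined the deposited intervals by error propagation. Exon lengths came from the mm9 annotation, with all annotated exons of a gene pooled. Promoter sequences came from RefSeq (GRCm38.p6), and positions in them count the start as 0. The calculations used Python 3.11.15, numpy 2.4.6 and pandas 2.3.3 and were tested on simulated data.

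The members, gene lists and tests were chosen with earlier results of these data known. All 9 members are reported, together with Hnrnpl, up to 3 called rises and 3 called falls of each list, expressed neighbours and the 3 most similar genes; 1 gene of the BMP pathway list is not reported here and was left out of its counts. Other pseudocounts, folds, scalings, filters and sums were tried.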

Additional observations from a re-analysis of the deposited data

How the results depend on the processing

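With 1 library per condition no replicate could be left out. No paired analysis was possible because each condition had 1 library and no test was made. The direction of every member with an FPKM of at least 1 in either library was kept under other pseudocounts, a fold of 2, centring on the median, upper-quartile scaling and the other alternatives in the differentiation comparison. Centring and upper-quartile scaling each called 2 members higher in MT, Tcf4 and Tcf12 (log2 changes of 0.60 and 0.72 for Tcf12). Under these the changes were -0.91 and -0.78 for the summed Id level, 0.41 and 0.54 for the summed E protein level and -1.63 and -1.56 for the summed Twist level, which was -2.07 and -2.09 with pseudocounts of 0.1 and 0.01. The ratio of Id to E protein changed by -1.53 without Id3 and by -1.14 without Tcf12, and in the siRNA comparison by 0.32 without Id3. A pseudocount of 0.01 called 2 members higher in si-hnRNPL (Id3 and Twist1) and 1 lower (Id4), at a few fragments each, and a fold of 2 called 0 higher. The genes called lower in MT numbered 7 with a pseudocount of 0.01, with Id4 and Twist1 added, and 4 at a fold of 2, without Tcf3. For Id4 the log2 change in MT was -2.12 with a pseudocount of 0.01 and 0.042 relative to genes of like exon length. Relative to genes of like exon length, 3 small siRNA changes changed sign, Tcf4 to 0.098, Twist1 to -0.044 and Twist2 to -0.0045, and the change of Id2 in MT was -0.71. At these depths changes of Id4 and Twist1 between the polyA libraries are not resolved.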
